A study of Mus musculus with 6 samples.

Results

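Polycomb repressive complex 2 (PRC2) was followed through the transcripts of 10 of its subunits in epidermis labelled as lacking both catalytic subunits of Polycomb repressive complex 1 (PRC1). The subunits were found by gene symbol in the count files, and all 10 were among the 24453 symbols there. All 10 also passed the filter on low counts, together with 14880 other genes. RNA sequencing measured 6 libraries of epidermal cells from the back skin of newborn mice at postnatal day 0. The sort kept cells with EpCAM, Sca1 and much α6-integrin on their surface, which selects interfollicular epidermis and enriches for its progenitors. Libraries C1, C2 and C3 were labelled Control, with no further genotype given, and libraries K1, K2 and K3 were labelled Ring1a-/- Ring1b-/-. The promoter or Cre line behind the deletion, the strain, and whether each library came from a separate animal are not given in the sources used here. The p-values therefore measure the spread between these libraries, which may be technical in part. A double knockout is written dKO in what follows.

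PRC2 is the enzyme complex that methylates lysine 27 of histone H3, the mark of silent developmental genes. Ezh2 or its paralog Ezh1 is the catalytic subunit, Eed binds the finished mark and stimulates the enzyme, Suz12 is the scaffold, and Rbbp4 or its paralog Rbbp7 is a histone-binding WD40 protein. Accessory subunits sort the core into alternative forms. Mtf2, Phf1 and Phf19, the Polycomb-like proteins, define PRC2.1, and Jarid2 and Aebp2 define PRC2.2. PRC1, whose ligases Ring1a (gene Ring1) and Ring1b (gene Rnf2) ubiquitinate histone H2A, works beside it, and Jarid2 and Aebp2 can bind ubiquitinated H2A. In skin, PRC2 is known to hold back differentiation genes in basal progenitors, where Ezh2 falls as cells leave the basal layer.

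The libraries held 18951665 to 31187270 counts. Levels are CPM, counts relative to TMM-scaled library sizes, and 3 counts, the upper limit that a count of 0 allows, correspond to 0.0975 to 0.154 CPM for counting error alone. The targeted gene Ring1 did not follow the labels in replicate 3, with 30.9, 17.1 and 3.90 CPM in the Control libraries (C1 to C3) and 1.66, 5.20 and 14.2 CPM in the dKO libraries (K1 to K3). Rnf2 was at 43.2 to 63.2 CPM in the Control and 55.4 to 64.1 CPM in the dKO libraries, and since the sources used here do not say which exons were removed, counts of the whole gene check no label for Rnf2. Xist was at 1757 to 6133 CPM in C3, K1 and K2 and at 4.48 to 10.5 CPM in the others. The Y-linked gene Ddx3y was at 91.2, 102 and 59.7 CPM in C1 to C3 and at 0.0346, 0.206 and 76.2 CPM in K1 to K3. Library C3 thus held both transcripts, and whether it mixed animals was not tested. The second principal component (18.5% of the variance) set C1 and K1 apart from the rest. On the first principal component (55.8% of the variance), C1 to C3 lay at -97.2, -72.2 and -81.0 and K1 to K3 at 107, 77.1 and 65.9. There C3 and K3 each lay with the other libraries of their label. Every direction below is that of the libraries labelled dKO against those labelled Control. Values without C3 and K3 (replicates 1 and 2 alone) are given for each subunit, for the replication genes and for the related genes that were called. In replicates 1 and 2 alone, both Control libraries were high in Ddx3y and low in Xist, and both dKO libraries the reverse. Differences of sex and of the labels therefore cannot be told apart there.

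Markers of the sorted cells moved in part. The 8 markers of basal interfollicular keratinocytes summed to 29501 to 43824 CPM in the Control and 25697 to 30807 CPM in the dKO libraries, of which the keratin Krt5 made up 15665 to 28244 CPM. Of these 8 markers 2 were called lower by the test used below, beside 2.98% of all genes tested: Trp63, the master regulator of stratified epithelium (log2 fold change -0.79, edgeR adjusted p = 0.0176), and the hemidesmosome collagen Col17a1 (-0.74, edgeR adjusted p = 0.0278). Of the sorting markers, Itga6 and Ly6a overlapped between the groups. Epcam was at 116 to 168 CPM in the Control and 207 to 381 CPM in the dKO libraries, without overlap (log2 fold change 0.95, edgeR adjusted p = 0.0598), and DESeq2 called it higher. The 6 suprabasal markers summed to 2342 to 5270 and 1807 to 4479 CPM, with 1 called higher, Krtdap (log2 fold change 0.96, edgeR adjusted p = 0.0246). The 8 hair follicle markers summed to 920.5 to 1081 CPM in the Control and 1078 to 1580 CPM in the dKO libraries, a sum made up mostly of Krt17 and Sox9, yet 3 of the 8 were called lower and none higher. The 3 were the inner root sheath keratins Krt25 (4.31 to 14.1 CPM in the Control libraries and 0 in each dKO library) and Krt71 (log2 fold change -3.50, edgeR adjusted p = 0.0268), and Lef1, a factor of hair matrix cells (-1.12, edgeR adjusted p = 0.0145). Krt25 passed the count filter through the Control libraries alone. Krt17 (0.69, edgeR adjusted p = 0.118) and Lhx2 (1.10, edgeR adjusted p = 0.194) were higher without overlap but not called. Over all genes tested, 2621 of 14890 were higher without overlap. Of the 8 estimates 4 were positive and 4 negative.

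Of markers of other cells, 8 of Merkel cells summed to 4.85 to 10.1 CPM in the Control and 54.4 to 104 CPM in the dKO libraries. The 4 that passed the count filter were called higher, and Atoh1, Krt8, Krt20 and Rab3c did not pass it. Over all genes tested 7.17% were called higher. Sox2 and Isl1 passed the filter through the dKO libraries alone, so that share is no fair measure for their calls. Sox2 and Isl1 were at 0 in each Control library and at 2.63 to 3.50 and 2.37 to 4.29 CPM in the dKO libraries. The keratin Krt18 went from 0.481 to 1.39 CPM to 19.8 to 67.5 CPM, and the touch channel Piezo2 from 4.24 to 8.76 CPM to 23.8 to 26.7 CPM. Rab3c was at 0 in every library, and Atoh1, the factor that specifies Merkel cells, was at most at 0.342 CPM. No marker of fibroblasts, endothelium, immune cells or melanocytes was called by edgeR. DESeq2 called 2 of the 5 melanocyte markers that passed the filter higher, beside 1639 of 14876 genes. The 7 of fibroblasts summed to 248 to 799 CPM in the Control and 440.0 to 731 CPM in the dKO libraries, 6 endothelial to 7.69 to 48.3 and 8.19 to 39.2 CPM, 7 of melanocytes to 12.9 to 16.3 and 16.3 to 27.3 CPM, and 7 immune to 100 to 230 and 73.6 to 174 CPM, with Cd3g at 0 in all libraries. The part of these shifts in the results below was not tested.

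No PRC2 subunit passed the test across all genes, and the lowest adjusted p were those of Phf19 and Ezh2, whose dKO values lay below every Control value. The log2 fold change was negative for 8 of the 10 and positive for Jarid2 and Aebp2, the PRC2.2 pair. edgeR's quasi-likelihood test, with Benjamini-Hochberg adjusted p under 0.05 as the threshold, called 0 of 10, beside 10.2% of the 14890 genes tested (7.17% higher and 2.98% lower). At an unadjusted p under 0.05 it gave 3 of 10, all lower in the dKO libraries (Phf19, Ezh2 and Ezh1), beside 9.86% of all genes tested that were lower at that level. The same 3 were those whose groups did not overlap, beside 14.8% of all genes without overlap and lower. DESeq2 called 2 of 10 lower (Ezh2 and Phf19, background 6.02%) and limma-voom 0 (background 3.22%). At an unadjusted p under 0.05 limma-voom gave 3, and its share of all genes at that level was not computed. The median log2 fold change of the 10 subunits was -0.27, beside 0.00040 over all genes tested. With replicates 1 and 2 alone it was -0.32, and 1 subunit, Ezh1, was lower at an unadjusted p under 0.05, beside 858 of 14914 genes. In bulk RNA, fewer cells of a type and less RNA per cell cannot be told apart.

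**Figure D1:**
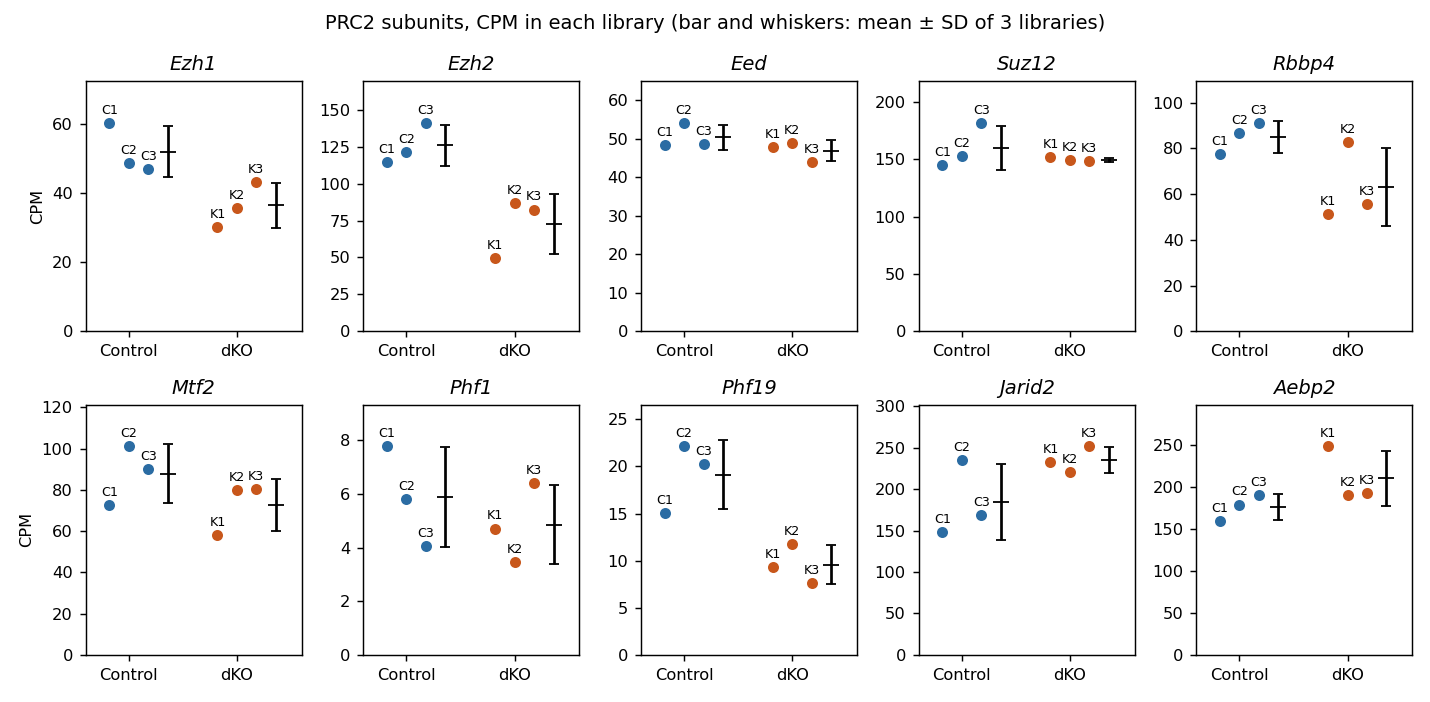
CPM of each of the 10 PRC2 subunits in the 3 Control (C1 to C3) and 3 Ring1a/b dKO (K1 to K3) libraries, each panel with its own axis from 0, and the mean ± SD of the 3 libraries beside the points. The groups are apart for Ezh1, Ezh2 and Phf19 and overlap for the other 7.

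Ezh2, the catalytic subunit of proliferating cells, had 115, 122 and 141 CPM in the Control libraries (C1 to C3) and 49.5, 86.7 and 82.5 CPM in the dKO libraries (K1 to K3). Every dKO library was below every Control library, and K1 was the lowest of the 6. The means were 126 ± 13.8 and 72.9 ± 20.3 CPM (SD, n = 3 libraries per group). The fold was 0.579 with a 95% interval of 0.399 to 0.840, a log2 fold change of -0.79 ± 0.24 (SE), and it missed the threshold (edgeR adjusted p = 0.0721). It passed in replicates 2 and 3 alone (log2 fold change -0.64, edgeR adjusted p = 0.0123) and did not with replicates 1 and 2 alone (-0.80, edgeR adjusted p = 0.315). Ezh2 lies on chromosome 6, minus strand, from 47530139 to 47595341 (GRCm38), with 2783 to 4131 counts in the Control and 1431 to 2539 in the dKO libraries.

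Ezh1, the paralog that prevails in cells that no longer divide, had 60.4, 48.6 and 47.1 CPM in the Control libraries (C1 to C3) and 30.2, 35.7 and 43.3 CPM in the dKO libraries (K1 to K3). The groups were apart by a small margin, from 43.3 CPM in K3 to 47.1 CPM in C3. The log2 fold change was -0.51 ± 0.21 (SE), a fold of 0.700 with an interval of 0.501 to 0.978 (edgeR adjusted p = 0.179). With an offset that levels the libraries for GC content and length it was -0.79 and passed (edgeR adjusted p = 0.0366), and with replicates 1 and 2 alone it was -0.73 (edgeR adjusted p = 0.310). Ezh1 is on chromosome 11, minus strand, 101191115 to 101226463.

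The balance of the paralogs was read within each library, where scaling to library size plays no part. The log2 ratio of Ezh1 to Ezh2 counts was -0.93, -1.32 and -1.58 in the Control libraries (C1 to C3) and -0.71, -1.28 and -0.93 in the dKO libraries (K1 to K3). The groups overlapped, Ezh2 had more counts than Ezh1 in all 6 libraries, and the difference of 0.30 was not beyond the spread between libraries (two-sided exact permutation test, p = 0.3, where 3 against 3 libraries allow no p below 0.1). Per kilobase of exon, the mean log2 ratio was -1.43 ± 0.33 in the Control and -1.13 ± 0.28 in the dKO libraries (SD). Without C3 and K3 the difference was 0.13. The ratio is not levelled for GC content and length. With the offset for these, the log2 fold changes were alike, at -0.79 for Ezh1 (edgeR adjusted p = 0.0366) and -0.80 for Ezh2 (edgeR adjusted p = 0.0572).

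Eed and Suz12, which the enzyme needs for activity, lay close together in both groups. Eed, the subunit that reads the methyl mark, had 48.3, 54.1 and 48.6 CPM in the Control libraries (C1 to C3) and 47.8, 48.9 and 43.8 CPM in the dKO libraries (K1 to K3). Its fold was 0.931 with an interval of 0.708 to 1.22 (edgeR adjusted p = 0.780), and with replicates 1 and 2 alone the log2 fold change was -0.09. Suz12 had 145, 152 and 182 CPM in the Control libraries (C1 to C3) and 152, 149 and 148 CPM in the dKO libraries (K1 to K3), so C3 alone stood above the rest. Its fold was 0.936 with an interval of 0.727 to 1.21 (edgeR adjusted p = 0.782). These intervals reach neither a drop to the fold of 0.579 estimated for Ezh2 nor a doubling. Without C3 the log2 fold change of Suz12 was 0.0035. In replicates 1 and 2 alone it was 0.0068, and the GC and length offset gave 0.068. Whether Ezh2 differed from Suz12 in its response was not tested.

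Rbbp4, the histone-binding subunit that PRC2 shares with deacetylase and chromatin assembly complexes, had 77.5, 86.6 and 91.2 CPM in the Control libraries (C1 to C3) and 51.3, 82.8 and 55.5 CPM in the dKO libraries (K1 to K3). K2 lay among the Control libraries while K1 and K3 were lower, and the log2 fold change of -0.43 ± 0.22 (SE) did not pass (edgeR adjusted p = 0.277). It was -0.67 without K2, -0.30 without K1 and -0.30 with replicates 1 and 2 alone, and not called in any of these. Its paralog Rbbp7 had 100 to 142 CPM in the Control and 84.7 to 111 CPM in the dKO libraries, with overlap (log2 fold change -0.33, edgeR adjusted p = 0.344). On chromosome 4, Rbbp4 shares 8.94% of its exon bases with Sync on the opposite strand, and 97.1% identity over 942 bases ties Rbbp7 to the gene Gm6382. Neither the strand of counting nor the handling of shared reads is given in the sources used here, so such reads cannot be told apart.

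Among the Polycomb-like proteins of PRC2.1, which bind DNA and methylated H3 lysine 36, Phf19 had the most negative fold change of the 10. It had 15.0, 22.1 and 20.2 CPM in the Control libraries (C1 to C3) and 9.28, 11.8 and 7.64 CPM in the dKO libraries (K1 to K3). All dKO libraries were below all Control libraries, at 229 to 268 counts against 400 to 591. The fold was 0.5001 with an interval of 0.322 to 0.778, a log2 fold change of -0.9997 ± 0.28 (SE), just short of the threshold (edgeR adjusted p = 0.0578). It was called lower with the GC and length offset (-1.32, edgeR adjusted p = 0.0225), which called 6.66% of all genes lower, and in replicates 2 and 3 alone (-1.13, edgeR adjusted p = 0.0263), where 7.1% of all genes were. With replicates 1 and 2 alone it was -0.82 (edgeR adjusted p = 0.393). Phf19 is on chromosome 2, minus strand, 34893757 to 34914026.

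Mtf2, the most counted of these proteins, had 72.7, 101 and 90.0 CPM in the Control libraries (C1 to C3) and 58.3, 80.0 and 80.3 CPM in the dKO libraries (K1 to K3). C1 lay below K2 and K3, and the log2 fold change of -0.27 ± 0.21 (SE) did not pass (edgeR adjusted p = 0.476). The estimate moved from -0.039 with the GC and length offset to -0.39 without C1, and was -0.16 without C2, -0.13 without K1 and -0.34 with replicates 1 and 2 alone. Mtf2 shares 6.93% of its exon bases with Tmed5 on the opposite strand. Phf1 was scarce, with 7.76, 5.81 and 4.07 CPM in the Control libraries (C1 to C3) and 4.71, 3.45 and 6.40 CPM in the dKO libraries (K1 to K3). Its groups overlapped widely, and its interval of 0.431 to 1.58 for the fold left both a drop and a rise possible (edgeR adjusted p = 0.751). Its log2 fold change was -0.27, and it ranged from -0.91 with the GC and length offset (edgeR adjusted p = 0.171) to 0.0034 in replicates 2 and 3 alone. It was -0.74 with replicates 1 and 2 alone, -0.024 without C1, -0.079 without K2, -0.49 without C3 and -0.52 without K3. Phf1 shares 39.3% of its exon bases with Cuta on the opposite strand of chromosome 17, so its level is uncertain.

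The PRC2.2 pair were the only subunits with positive estimates. Jarid2, a catalytically inactive jumonji protein that guides and stimulates the complex, had 148, 236 and 169 CPM in the Control libraries (C1 to C3) and 233, 221 and 252 CPM in the dKO libraries (K1 to K3). C2 was as high as the dKO libraries, and the log2 fold change of 0.35 ± 0.20 (SE) did not pass (edgeR adjusted p = 0.335). With the GC and length offset it was 0.076, without C2 0.57 (edgeR adjusted p = 0.158), without C1 0.21 and with replicates 1 and 2 alone 0.23. Aebp2, a zinc finger protein that stabilizes the core, had 159, 179 and 190 CPM in the Control libraries (C1 to C3) and 249, 190 and 193 CPM in the dKO libraries (K1 to K3). K1 was high, K2 and K3 were level with C3, and the log2 fold change was 0.26 ± 0.18 (SE; edgeR adjusted p = 0.421). It was 0.12 without K1, 0.051 in replicates 2 and 3 alone and 0.37 with replicates 1 and 2 alone. The plot of fold changes sets these 2 to the right of 0 and the other 8 to the left.

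**Figure D2:**
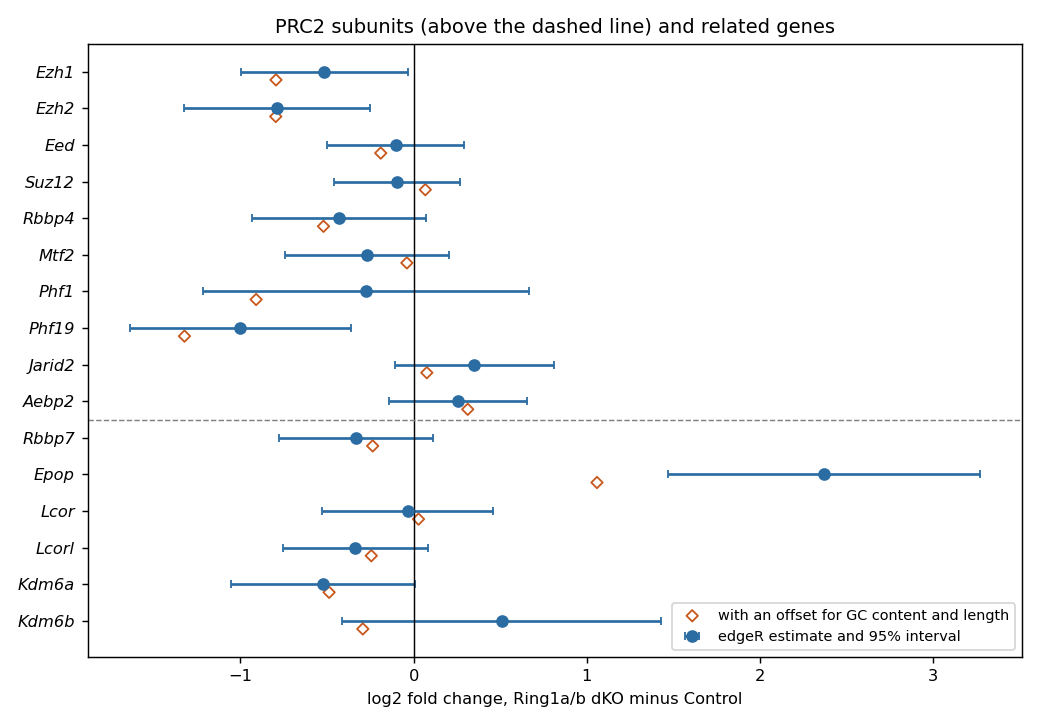
Log2 fold change of dKO against Control libraries for the 10 PRC2 subunits and, under the dashed line, 6 related genes, with 95% intervals from edgeR (filled circles) and the estimate with an offset for GC content and length (open diamonds). The intervals of Ezh1, Ezh2 and Phf19 lie below 0 before adjustment for multiple tests, and Epop stands at 2.37, or 1.06 with the offset.

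The accessory subunits were also compared within each library, as the mean log2 CPM of Mtf2, Phf1 and Phf19 minus that of Jarid2 and Aebp2. This PRC2.1 to PRC2.2 ratio was -2.91, -3.13 and -3.20 in the Control libraries (C1 to C3) and -4.14, -3.78 and -3.80 in the dKO libraries (K1 to K3). All 3 dKO libraries were below all 3 Control libraries. The difference was -0.83 on the log2 scale, with SDs of 0.15 and 0.20, and the two-sided exact permutation test gave p = 0.1, the smallest that 3 against 3 libraries allow. It was -0.94 without C3 and K3 and -0.63 without C1 and K1. The difference depends on which genes stand for PRC2.1. With Epop, another PRC2.1 protein, added to the 3, the ratio was -3.74 to -3.59 in the Control and -3.88 to -3.63 in the dKO libraries, with overlap and a difference of -0.09 (two-sided exact permutation test, p = 0.4). With Epop, Lcor and Lcorl added the difference was -0.23 (p = 0.1 in the same exact test), with the groups apart by a small margin. Both were computed after the values were seen. The ratio weighs transcripts, not assembled complexes, and includes Phf1, whose counts are few and may hold reads of Cuta.

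**Figure D3:**
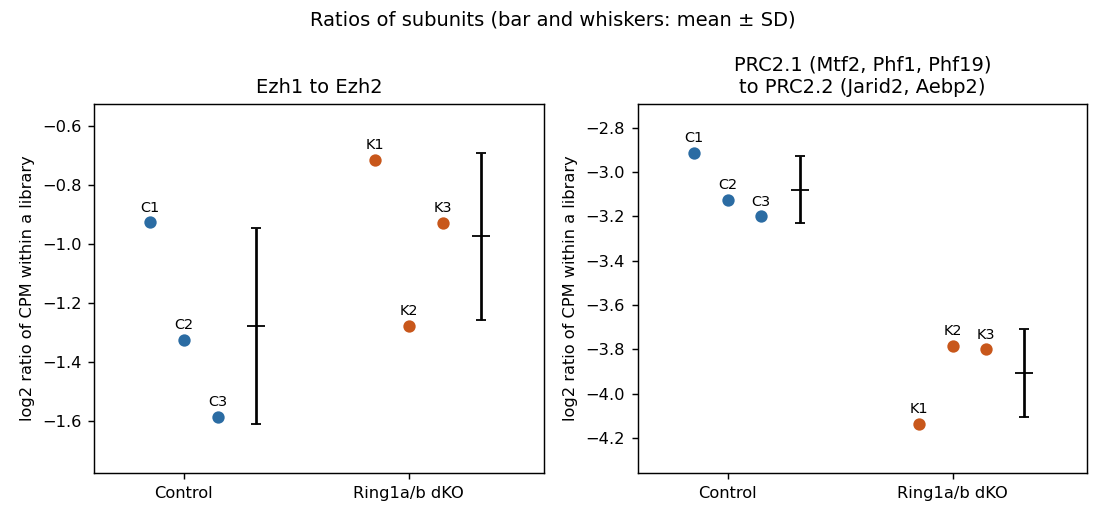
Left, log2 ratio of Ezh1 to Ezh2 in each library; right, log2 ratio of the PRC2.1 accessory subunits to those of PRC2.2; points are libraries and the bar and whiskers give the mean ± SD of 3. The Ezh1 to Ezh2 ratio overlaps between the groups, and the accessory ratio runs from -3.20 to -2.91 in the Control and from -4.14 to -3.78 in the dKO libraries.

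Levels of different subunits are comparable only per length, here CPM per kilobase of the gene's joined exons. Of the 10 subunits Suz12 was the highest in the Control libraries at 32.3 ± 3.95 CPM per kb (SD, n = 3), while Rbbp7, the paralog of Rbbp4, stood above all 10 at 42.2 ± 7.30. Jarid2 (19.0 ± 4.70), Ezh2 (18.9 ± 2.06), Aebp2 (17.9 ± 1.61), Mtf2 (15.4 ± 2.51) and Eed (13.1 ± 0.856) followed, and each overlapped its neighbour in this order. Below them came Rbbp4 (9.73 ± 0.802), Ezh1 (6.99 ± 0.978), Phf19 (3.79 ± 0.731) and Phf1 (1.69 ± 0.530), each without overlap with the next. In the dKO libraries Ezh2 stood at 10.9 ± 3.05 CPM per kb, below Mtf2 (12.8 ± 2.22) and Eed (12.2 ± 0.703), with overlap, while Suz12 was again the highest of the 10 at 30.2 ± 0.363 and Rbbp7 stood at 33.5 ± 4.56. The order depends on the length used. With the longest transcript in place of joined exons, Ezh2 was the highest of the 10 in the Control libraries at 45.2 CPM per kb and Suz12 next at 36.5.

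The promoters of 3 of the 10 subunits held the DNA word bound by E2F factors, which drive genes of the cell cycle. The search covered 250 bases before to 30 after each RefSeq start, on both strands, for the words TTTCGCGC, TTTGGCGC, TTTCCCGC and TTTGCCGC, which do not contain one another. Of 32851 promoter windows of this length in all genes, 2.12% held at least 1 of them. All 10 subunits had an entry, 14 windows in all. Ezh2 and Phf19, the subunits with the lowest p, each held 1 word, and so did Suz12, whose groups overlapped. Whether the word goes with the change of a subunit was not tested. These windows were richer in G and C (64.6% in Ezh2, 74.6% in Phf19 and 73.6% in Suz12) than the median window (52.5%). A match of letters is a description and not a binding site. The 3 windows are shown because they set the pair with the lowest p beside the scaffold subunit that shares the word; they run 5′ to 3′ on the gene's own strand, with the E2F word or its reverse complement in capitals.
Ezh2 (GRCm38.p6, chr6:47595001-47595280, minus strand): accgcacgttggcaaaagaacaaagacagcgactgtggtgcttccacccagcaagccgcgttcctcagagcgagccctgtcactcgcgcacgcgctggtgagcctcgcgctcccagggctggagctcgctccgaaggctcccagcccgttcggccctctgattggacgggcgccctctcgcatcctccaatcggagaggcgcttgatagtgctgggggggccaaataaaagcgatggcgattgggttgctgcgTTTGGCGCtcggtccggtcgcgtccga
Phf19 (GRCm38.p6, chr2:34913947-34914226, minus strand): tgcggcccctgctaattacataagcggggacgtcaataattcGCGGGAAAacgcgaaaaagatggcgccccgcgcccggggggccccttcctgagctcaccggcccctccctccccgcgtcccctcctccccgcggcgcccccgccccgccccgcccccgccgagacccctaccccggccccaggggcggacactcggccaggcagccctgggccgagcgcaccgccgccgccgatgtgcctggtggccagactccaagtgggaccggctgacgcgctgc
Suz12 (GRCm38.p6, chr11:79992856-79993135, plus strand): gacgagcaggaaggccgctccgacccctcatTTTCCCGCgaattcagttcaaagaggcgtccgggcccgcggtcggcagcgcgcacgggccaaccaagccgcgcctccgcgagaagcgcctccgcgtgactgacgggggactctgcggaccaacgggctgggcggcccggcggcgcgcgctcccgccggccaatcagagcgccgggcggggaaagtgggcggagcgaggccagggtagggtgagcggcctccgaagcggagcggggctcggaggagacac
In Ezh2 the word TTTGGCGC lay at bases 4 to 11 after the start. In Phf19 the reverse complement of TTTCCCGC lay 208 to 201 bases before the start, and in Suz12 TTTCCCGC lay 219 to 212 bases before it. Ezh2 also held the word CCAAT, bound by the factor NF-Y, at 3 places on either strand. CCAAT was also in windows of Aebp2, Eed, Jarid2, Mtf2, Rbbp4 and Suz12. It was not in those of Ezh1, Phf1 or Phf19, and it was in 36.1% of all windows. The words TTTGAA and TTCGAA were searched too, and TTTGAA was in windows of Aebp2, Eed, Mtf2 and Suz12. Neither was in the window of Ezh2 or Phf19, and 18.4% of all windows held at least 1 of them.

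Most of the listed genes of DNA replication, many of which are E2F targets, had negative estimates in the dKO libraries, and a minority were called. Of 25 S phase and replication genes 23 had negative log2 fold changes, with a median of -0.62 beside 0.00040 for all genes tested. At an unadjusted p under 0.05 in edgeR, 11 were lower, beside 9.86% of all genes. After adjustment 3 were called lower and none higher. The 3 were Gins2 (-1.23, edgeR adjusted p = 0.0128), Mcm4 (-0.87, edgeR adjusted p = 0.0326) and Gins1 (-1.05, edgeR adjusted p = 0.0478), parts of the replicative helicase. That is 3 of 25 beside 2.98% of all genes called lower, and 13 of the 25 had groups without overlap and lower, beside 14.8%. With replicates 1 and 2 alone none of the 25 was called, but only 0.57% of all genes were called lower there. The median was then -0.50 beside -0.0059 for all genes, and 13 were without overlap and lower, beside 23.5%. The summed level of the 25 genes was 1742, 1953 and 2200 CPM in the Control libraries (C1 to C3) and 958, 1668 and 1300 CPM in the dKO libraries (K1 to K3), lowest in K1 as Ezh2 was. Of 23 G2 and mitosis genes none was called by edgeR, 10 were lower at an unadjusted p under 0.05 (background 9.86%) and DESeq2 called 3 lower (Ccna2, Cenpf and Nusap1; background 6.02%). Mki67, the proliferation antigen and the highest of them by mean, had a log2 fold change of -0.78 (edgeR adjusted p = 0.150). Their sum overlapped between the groups at 3922 to 7397 CPM in the Control and 2847 to 4501 CPM in the dKO libraries. The part of proliferation in the values of Ezh2 and Phf19 was not tested. The count of called replication and mitosis genes, 3 in all, was 1 (Gins2) without C1 or K3, 0 without C3, 9 without K1 (8 lower, and E2f2 higher) and 0 with replicates 1 and 2 alone. Of all genes, 9.12% were called without K1, 7.65% without C1, 6.52% without K3, 5.31% without C3 and 2.94% with replicates 1 and 2 alone.

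**Figure D4:**
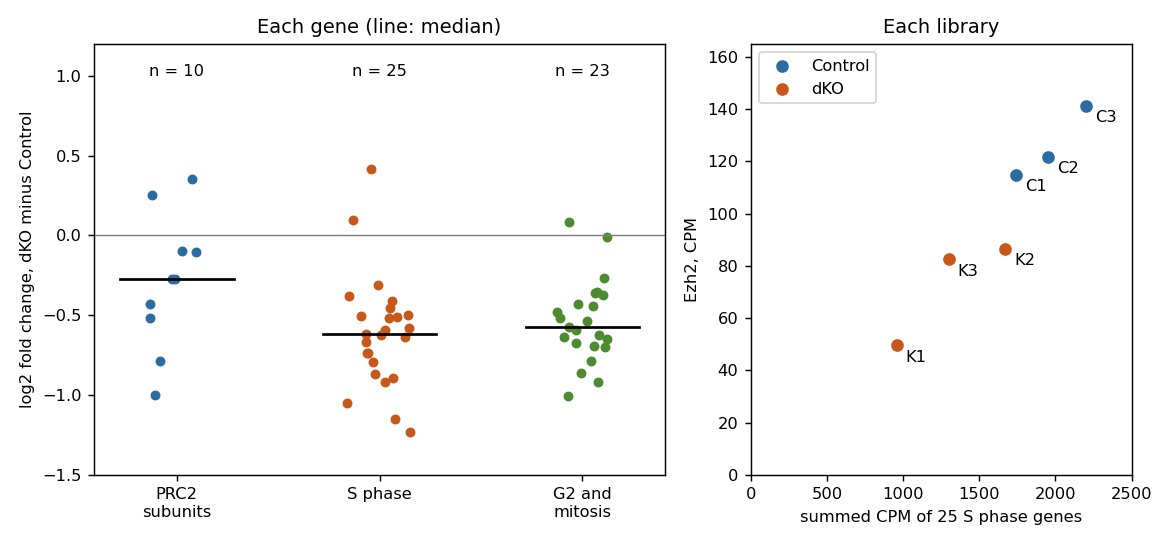
Left, log2 fold change of dKO against Control for each of the 10 PRC2 subunits, 25 S phase genes and 23 G2 and mitosis genes, with the median as a line; right, Ezh2 CPM against the summed CPM of the S phase genes in each library. The medians are -0.27, -0.62 and -0.57, and K1 has the lowest value on both axes of the right panel.

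The transcripts closest in pattern to Ezh2 over the 6 libraries, among 8935 named genes of at least 10 CPM, were Fundc1 (Pearson r = 0.999 of log2 CPM), Paqr5 (r = 0.996) and Zfp606 (r = 0.995). Those closest to Phf19 were Pnrc2 and Chek1 (r = 0.988 each) and Slc25a36 (r = 0.985). All points come from the same 6 libraries in 2 groups, so these values describe likeness only. Since they were chosen for likeness to 2 genes that are lower in the dKO libraries, their own differences between the groups are not given as results.

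Of the 26 related genes outside the 10 subunits that were in the files, 2 rose and 1 fell. They comprise other PRC2-associated proteins, the demethylases of H3 lysine 27, the methyltransferases of H3 lysine 36 and lysine 4 that oppose PRC2, and the complex that removes ubiquitin from histone H2A. The 3 calls out of 26 stand beside 10.2% over all genes tested, and their median log2 fold change was -0.21. Without C2, C3 or K2 only Epop was called, beside 7.02%, 5.31% and 5.35% of all genes. With replicates 1 and 2 alone the 1 call was Uty, beside 2.94% of all genes. Uty is Y-linked, and it was at 28.8 to 57.1 CPM in the Control libraries, 0.0692 CPM in K1, 0 in K2 and 37.9 CPM in K3. With the GC and length offset 6 were called, Asxl3 higher and Nsd2, Kmt2b, Kmt2c, Kmt2d and Mbd6 lower, beside 12.5% of all genes.

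Epop, which joins PRC2.1 and links it to elongin, rose in the dKO libraries. It had 2.36, 6.42 and 4.41 CPM in the Control libraries (C1 to C3) and 27.7, 22.9 and 17.6 CPM in the dKO libraries (K1 to K3). Every dKO library was above every Control library, and the log2 fold change was 2.37 ± 0.40 (SE; edgeR adjusted p = 0.00747). Leaving out any 1 library left it between 2.07 and 2.74 and called. It was 2.52 with replicates 1 and 2 alone (edgeR adjusted p = 0.0582) and 1.06 with the GC and length offset (edgeR adjusted p = 0.0867), both short of the threshold. Per kilobase of exon, Epop stood at 1.90 ± 0.878 CPM in the Control and 9.82 ± 2.19 CPM in the dKO libraries. In the dKO libraries it was thus above Phf19 (1.90 ± 0.415) and Phf1 (1.39 ± 0.425), its companions in PRC2.1, and in the Control libraries below Phf19. Lcor and Lcorl, whose loci encode the PALI proteins of PRC2.1, had log2 fold changes of -0.03 and -0.34 and did not pass (edgeR adjusted p = 0.949 and 0.308).

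The demethylases that remove the PRC2 mark did not pass. Kdm6a had 185 to 293 CPM in the Control and 121 to 176 CPM in the dKO libraries, without overlap (log2 fold change -0.52, edgeR adjusted p = 0.213). Kdm6a is X-linked and known to escape X inactivation, and with Xist as a covariate its log2 fold change was -0.63 (edgeR adjusted p = 0.274). Kdm6b had 108 to 204 CPM in the Control and 120 to 357 CPM in the dKO libraries, where K1 alone was above all others (log2 fold change 0.51, edgeR adjusted p = 0.494). Without K1 the estimate was -0.10, and with the GC and length offset -0.29.

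Among the enzymes that methylate H3 lysine 36, a mark that hinders PRC2, 1 of 5 fell, beside 2.98% of all genes called lower. Nsd2 had 199, 215 and 257 CPM in the Control libraries (C1 to C3) and 128, 131 and 91.9 CPM in the dKO libraries (K1 to K3), without overlap (log2 fold change -0.93 ± 0.20, SE; edgeR adjusted p = 0.0202). Its adjusted p was above the threshold without C2, C3, K2 or K3 (0.0558 to 0.0877) and with replicates 1 and 2 alone (0.272), by edgeR. None of the 4 lysine 4 methyltransferases of the MLL group was called by edgeR, while 1, Kmt2c, was under an unadjusted p of 0.05 (log2 fold change -0.58, edgeR adjusted p = 0.0712) and was called lower by DESeq2. The highest of them by mean was Kmt2d (log2 fold change 0.06, edgeR adjusted p = 0.909). Of 10 genes of the H2A deubiquitinase 1 rose, beside 7.17% of all genes tested. This was Asxl3, from 1.51 to 5.33 CPM in the Control to 9.75 to 17.1 CPM in the dKO libraries (log2 fold change 2.13 ± 0.56, SE; edgeR adjusted p = 0.0449). Its adjusted p was above the threshold without C2, C3, K1, K2 or K3 (0.0777 to 0.134), and also in replicates 1 and 2 alone (0.201) and with Xist as a covariate (0.126), by edgeR.

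**Figure D5:**
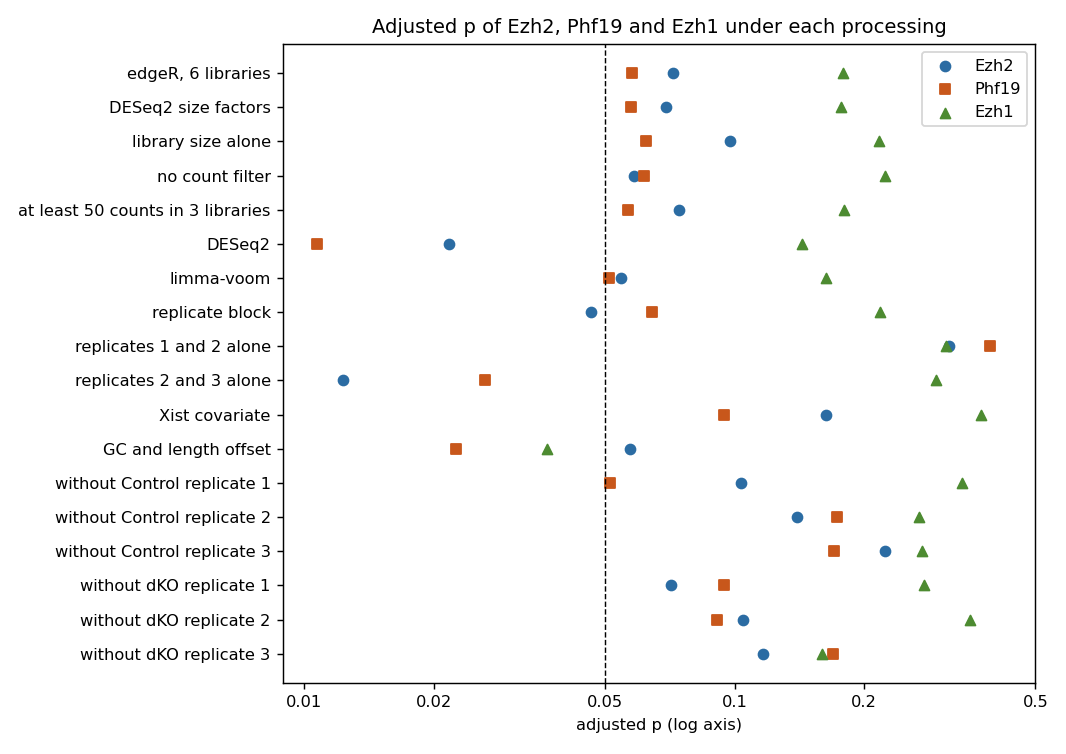
Adjusted p of Ezh2, Phf19 and Ezh1 (log axis) under each way of processing, with the threshold of 0.05 as a dashed line. Ezh2 and Phf19 lie on either side of the line depending on the setting, from 0.0123 to 0.315 for Ezh2 and from 0.0107 to 0.393 for Phf19, and Ezh1 is below it with the GC and length offset only.

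The log2 fold changes of Ezh2, Phf19 and Ezh1 were negative under all 17 alternatives, while the calls varied. Ezh2 ranged from -0.93 to -0.57, Phf19 from -1.32 to -0.82 and Ezh1 from -0.79 to -0.27. No subunit was called when any 1 library was left out, beside 5.31% to 9.12% of all genes.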

How the data were processed

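The deposited files hold raw counts per gene symbol, 1 file per library, that the authors made. The submitters' processing notes name mm10, HTSeq 0.6.1, TopHat2 2.0.13, DESeq2 1.6.3 and Cufflinks 2.2.1, without their roles. Per the labels' protocols, RNA was amplified with a Nugen Ovation kit before library construction. Groups came from the sample titles. All 14890 genes passing filterByExpr (minimum count 10, minimum total 15) were fitted in edgeR 4.0.16 (R 4.3.3) with TMM factors, a two-sided quasi-likelihood test and no covariate. A prior count of 0.125 was used, and ± on a log2 fold change is the model's SE. DESeq2 1.42.0 and limma-voom 3.58.1 were alternatives, beside other scalings and filters, a replicate block, an Xist covariate, pairs of replicates, each library left out and an offset for GC content and length (known for 97.8% of tested genes). Within-library ratios used a pseudocount of 0.5 counts. Positions and exon lengths are from GENCODE M21 (GRCm38), promoters from RefSeq (GRCm38.p6), and similar transcripts were found with BLAST 2.17.0. Figures used matplotlib 3.10.9.

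Genes named are the 10 subunits, Ring1 and Rnf2, Rbbp7, Epop, Kdm6a, Kdm6b, from each other list up to 3 called members or else the member with the highest mean, and the 3 genes most like Ezh2 and Phf19. Lcor, Lcorl, genes sharing exons, markers named singly and genes named under an alternative were chosen after their values were seen. Members, lists and alternatives were chosen with earlier results of these data known. No pair of libraries were copies, with a chi-square of at least 28.6 per degree of freedom. On simulated counts of 14890 genes for this comparison, 1.75% of 57 genes with a 1.5-fold change were recovered, 20.5% of 73 with a 2-fold change and 81.4% of 70 with a 4-fold change, with 6 false calls.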

Additional observations from a re-analysis of the deposited data

How the results depend on the processing

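Over 17 alternatives, all set with earlier results of these data known, Eed, Rbbp4, Mtf2, Jarid2 and Aebp2 kept their direction and were not called. PRC2 subunits called were 2 with DESeq2 (log2 fold changes of -0.79 for Ezh2 and -0.998 for Phf19), 2 in replicates 2 and 3 alone (Ezh2 -0.64 and Phf19 -1.13), 2 with the GC and length offset (Ezh1 -0.79 and Phf19 -1.32), 1 with the replicate block (Ezh2 -0.83, edgeR adjusted p = 0.0464), and 0 to 0 without any 1 library. All were lower, and the shares of all genes called lower were 6.02%, 7.1%, 6.66% and 2.92% in that order. Some estimates changed sign: Suz12 to 0.0068 with replicates 1 and 2 alone, 0.068 with the offset and between -0.16 and 0.0035 without 1 library, Phf1 to 0.0034 in replicates 2 and 3 alone, and Kdm6b to -0.29 with the offset and between -0.10 (without K1) and 0.80 without 1 library. The cause of these shifts was not tested.

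Over all genes, 1512 calls became 2535 with DESeq2, 439 from replicates 1 and 2 alone, 2694 from replicates 2 and 3 alone, 813 with the Xist covariate and 811 to 1393 without 1 library (811 without C3, 821 without K2, 995 without K3). With the offset the median over all genes was -0.15 on the log2 scale, and 46.8% of its calls were higher, against 70.6% in the comparison itself, 60.6% in replicates 2 and 3 alone, 80.6% in replicates 1 and 2 alone and 78.4% with the Xist covariate. Of the related genes, 3 called became 1 with replicates 1 and 2 alone, 6 with the offset and 1 to 3 without 1 library. Of the 48 replication and mitosis genes, 3 called became 6 without a count filter, 8 with DESeq2, 6 with the replicate block, 0 with replicates 1 and 2 alone, 13 in replicates 2 and 3 alone, 1 with the Xist covariate, 8 with the offset and 0 to 9 without 1 library. The shares of all genes called moved too, from 10.2% to 8.74%, 17%, 9.74%, 2.94%, 18%, 5.46% and 12.5% in that order. Without 1 library they were 5.31% to 9.12%.

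Same-numbered libraries deviated together with correlations of 0.16, 0.20 and 0.07 for replicates 1, 2 and 3, each library correlated best with its own number, and the labels do not say that numbers pair animals. With the replicate block 1451 genes were called. For the within-library ratios, the mean over same-numbered pairs equals the difference of the group means by arithmetic. It was 0.30 for Ezh1 to Ezh2 and -0.83 for PRC2.1 to PRC2.2, and this is no check on them. The exact sign-flip test over the pairs gave p = 0.25 for each, the smallest that 3 pairs allow. Of 8 subunits the Control level per kb moved by more than its SD with the longest transcript. With Epop alone or with Epop, Lcor and Lcorl added to PRC2.1, an alternative chosen after seeing the data, the PRC2.1 to PRC2.2 difference was -0.09 and -0.23. The fewest counts were those of Phf1, at 67 to 207.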
